A study of Mus musculus with 9 samples.

Results

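The genes described here are 10 genes of the MHC class I pathway, chosen by symbol: H2-K1, H2-D1, B2m, Tap1, Tap2, Tapbp, Psmb8, Psmb9, Nlrc5 and Erap1. They are 10 of 37022 genes with a row in the tables, and all 10 were strong enough in the gene body to be tested, with 15942 genes tested in all. Nascent RNA, the RNA made during a short pulse of the uridine analogue 5-ethynyl uridine and then captured on beads, was sequenced from CD8 T cells of mice, lymphocytes that kill infected or malignant cells. Cells were stimulated acutely in 3 libraries and chronically in 6, of which 3 had MEK, the kinase that activates ERK, inhibited. The labels give no strain, genotype, age, mode or length of stimulation, or name of the inhibitor, and they do not say whether the 3 libraries of a group came from separate animals or cultures, so p-values measure only the spread between these libraries. The series set out to examine nascent transcription in T cell exhaustion, the state that follows lasting stimulation.

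Class I molecules show peptides from inside the cell to CD8 T cells. The proteasome cuts proteins into peptides, and the subunits Psmb8, Psmb9 and Psmb10 take the place of constitutive catalytic subunits in the immunoproteasome. Tap1 and Tap2 form the pump that carries peptides into the endoplasmic reticulum, where Erap1 trims them and Tapbp (tapasin) helps to load them onto a heavy chain, such as H2-K1 or H2-D1, paired with the light chain B2m. Interferons acting through Irf1 and other factors, and the transactivator Nlrc5 acting with Rfx5 and partner factors at a conserved promoter module, are known regulators of these genes. T cells themselves carry class I molecules.

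Of the 10 genes, 7 lie on chromosome 17 (GRCm38), in or near the mouse MHC. Psmb9 (34181987 to 34187764, minus strand), Tap1 (34187553 to 34197225, plus), Psmb8 (34197721 to 34201454, plus) and Tap2 (34203527 to 34216321, plus) sit together within 34.3 kb. The others on that chromosome are Tapbp (33915899 to 33929292, plus), H2-K1 (33996017 to 34000347, minus) and H2-D1 (35262730 to 35267499, plus). B2m is on chromosome 2 (122147686 to 122153083, plus), Nlrc5 on chromosome 8 (94434356 to 94527272, plus) and Erap1 on chromosome 13 (74639568 to 74693201, plus). Tap1 and Psmb9 overlap each other on opposite strands. B2m overlaps Patl2, Erap1 overlaps Cast, Tapbp overlaps Gm19412, Psmb8 overlaps Gm20496, Tap2 overlaps Gm20496 and Gm15821, and Nlrc5 overlaps 9330175E14Rik in the same way, and Nlrc5 also holds Mir7072 on its own strand. The counting's use of strand is not given in the sources used here, so reads of such pairs cannot be told apart. H2-K1 and H2-D1 are near-identical paralogues whose reads may have been split between them.

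The RefSeq promoter table (GRCm38.p6; 250 bases before to 50 after each start) held 8 of the 10 genes; Nlrc5 and Tap2 had no entry. The promoters of the class I molecule itself are shown because its 3 genes, which are not neighbours, were each lower in chronic libraries and higher under MEK inhibition in the results that follow. Each stretch has 120 bases, and capitals mark matches to letter patterns of the known class I promoter elements, searched on both strands: GGGATTCCC and, in B2m, GGAAANTCC (forms of the kappa B site), GAAANNGAA or GAANNGAAA (the core of an interferon-stimulated response element, which in H2-K1 and H2-D1 reads on the other strand), TGACG (the X2 box) and ATTGG (the Y box).

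H2-K1, chr17:34000348-34000467, minus strand: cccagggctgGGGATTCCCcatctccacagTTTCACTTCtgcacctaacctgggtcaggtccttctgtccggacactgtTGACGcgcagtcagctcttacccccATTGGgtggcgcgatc
H2-D1, chr17:35262914-35263033, plus strand: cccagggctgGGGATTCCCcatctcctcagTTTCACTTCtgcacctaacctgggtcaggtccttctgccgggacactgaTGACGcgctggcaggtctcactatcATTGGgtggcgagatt
B2m, chr2:122147537-122147656, plus strand: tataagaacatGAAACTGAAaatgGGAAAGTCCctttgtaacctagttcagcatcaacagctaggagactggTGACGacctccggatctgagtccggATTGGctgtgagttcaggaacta

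The H2-K1 and H2-D1 stretches were identical at 107 of 120 bases (89.2%), and the lettered elements were the same in both. Each of the 3 promoters held TGACG and ATTGG with 20 bases between them, a spacing found on either strand in 31 of the 32851 promoters of the table (0.0944%). The kappa B letters GGGATTCCC were found in 116 promoters (0.353%), H2-K1 and H2-D1 among them, and GGAAANTCC in 1.25%. GAAANNGAA was found in 8.56% of promoters, GAANNGAAA in 7.52%, TGACG in 20.8% and ATTGG in 37.4%. The short patterns are thus common, and the 2 forms of the response element can overlap. TGANTCA, an AP-1 site, was in none of the 8 windows and in 7.81% of all promoters, and TTCNNNGAA, a STAT site, was in that of Psmb8 and in 8.3% of all. The patterns were chosen with the sequences in view, and a match describes letters, not binding.

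Psmb9 and Tap1 are transcribed away from each other from RefSeq starts that leave 225 bases between them. That shared stretch is given on the strand of Tap1, with the X2 letters TGACG in capitals and also the Y letters, which read ATTGG on the strand of Psmb9.

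Psmb9 to Tap1, chr17:34187331-34187555, plus strand: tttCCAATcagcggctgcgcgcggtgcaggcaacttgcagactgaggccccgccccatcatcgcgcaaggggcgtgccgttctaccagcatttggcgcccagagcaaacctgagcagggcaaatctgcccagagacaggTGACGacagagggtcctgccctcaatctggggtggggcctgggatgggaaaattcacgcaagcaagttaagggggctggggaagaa

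In the gene body, the 9 libraries summed to a deposited signal between 48601800 and 52216200, a scaled unit in which depth in reads is unknown. A ribosomal RNA-like locus took 19.07% to 22.32% of it in acute, 34.2% to 40.63% in chronic and 29.01% to 36.14% in MEK-inhibited libraries, so values were scaled by the bulk of genes (a trimmed mean of log ratios). Correlations between libraries of a group ran from 0.959 to 0.984 across genes, and no library repeated another. Dusp6, a feedback phosphatase driven by ERK, had a scaled signal of 2395 ± 89.2 (SD, n = 3) in chronic libraries and 204 ± 9.69 in MEK-inhibited libraries. Its change was -3.52 on the log2 scale (SE 0.13, adjusted p = 5.23e-12). Of 8 T cell markers, 8 passed the filter, and their sum was 39504 to 45844 in acute, 25412 to 30457 in chronic and 33900 to 36484 in MEK-inhibited libraries. Cd8a, a chain of the defining co-receptor, had 4061 ± 361 in acute, 969 ± 179 in chronic and 2881 ± 262 in MEK-inhibited libraries, so the label's own marker was lowest under chronic stimulation. The 8 did not move alike between acute and chronic libraries. Cd8a changed most, by -2.07, and Cd8b1 by -0.60. Cd3e, Cd247, Cd2 and Lck were called lower by -0.38 to -0.54, and Cd3d (-0.04) and Cd3g (0.09) were not called.

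Chronic stimulation came with less nascent RNA from most of the 10 genes. Between chronic and acute stimulation, 8 of the 10 genes were lower and 0 were higher, where 33.9% of all genes tested were called, 15.9% lower and 18% higher. Every chronic library lay below every acute one for those 8, a separation that 21.9% of genes showed. H2-K1, B2m, Tap1, Tapbp and Psmb9 stood at 60.3% to 64.6% of their acute means, H2-D1 at 75.9%, Erap1 at 53.6% and Nlrc5 at 44.7%, while Tap2 and Psmb8 did not pass the test. The median change was -0.67 on the log2 scale, against -0.02 over all genes. On library totals, without scaling by the bulk of genes, 10 of the 10 were lower, but there the median of all genes was itself -0.50, and 6846 genes were lower and 1096 higher. Relative to the median of all genes the set's median was -0.66 as reported and between -0.54 and -0.74 under 22 alternatives. In bulk libraries, fewer expressing cells and less RNA per cell cannot be told apart.

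Under MEK inhibition of chronically stimulated cells the whole set was higher. All 10 genes were called higher and 0 lower against chronic libraries, where 17.6% of all genes were called, 9.93% higher and 7.65% lower. In 10 of 10 every MEK-inhibited library lay above every chronic one, which 17.8% of genes showed. The gains ran from 0.46 for Erap1 to 1.00 for Tap1 on the log2 scale, with a median of 0.72 against 0.04 for all genes. Both comparisons use the same chronic libraries and are therefore not independent of each other.

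**Figure D1:**
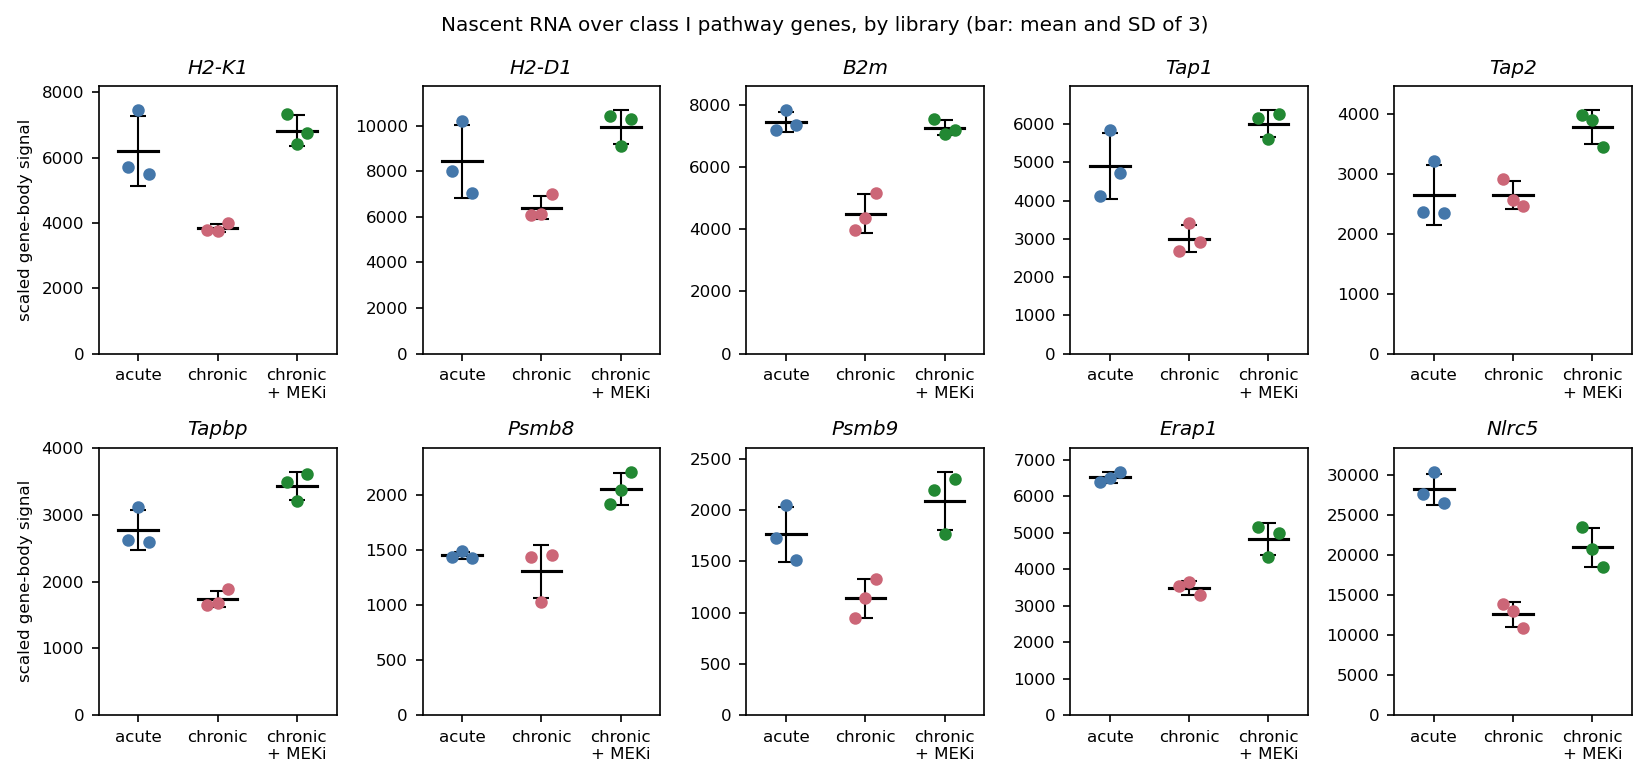
Scaled gene-body signal (vertical axis, from 0, own range per gene) of the 10 genes in acute, chronic and MEK-inhibited chronic libraries; each point is a library, and the bars give the mean and SD of 3. The chronic points lie lowest in 8 panels, and in those of Tap2 and Psmb8 they overlap the acute points.

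Of the heavy chains, H2-K1 had a scaled gene-body signal of 5704, 7449 and 5487 in the acute libraries, 3791, 3742 and 3992 in the chronic ones and 7322, 6403 and 6756 under MEK inhibition. The chronic libraries were tightly grouped and far below both other groups, which overlapped each other. The change from acute to chronic was -0.68 (SE 0.11, adjusted p = 7.35e-05) and that from chronic to MEK-inhibited 0.83 (SE 0.11, adjusted p = 1.85e-05), on the log2 scale as throughout. All 14 annotated transcript rows of H2-K1 were lower in chronic than in acute libraries, by -0.65 to -0.98, and higher again under MEK inhibition, by 0.58 to 1.00; these rows share reads.

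H2-D1 had 8024, 10216 and 7057 in acute, 6095, 6110 and 6999 in chronic, and 10417, 9093 and 10312 in MEK-inhibited libraries. The highest chronic library, 6999, lay just under the lowest acute one. The fall was -0.38 (SE 0.12, adjusted p = 0.0158) and was not called without acute replicate 2 (-0.23, adjusted p = 0.101), chronic replicate 1 (adjusted p = 0.0565) or chronic replicate 2 (adjusted p = 0.0669). The gain under MEK inhibition was 0.63 (SE 0.12, adjusted p = 6.44e-04).

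B2m, the light chain that every classical class I molecule needs, had 7199, 7826 and 7357 in acute libraries. It had 3966, 4352 and 5179 in chronic and 7542, 7068 and 7201 in MEK-inhibited ones. Acute and MEK-inhibited values were interleaved, with the chronic values well below. The changes were -0.74 (SE 0.10, adjusted p = 1.02e-05) from acute to chronic and 0.70 (SE 0.10, adjusted p = 4.02e-05) from chronic to MEK-inhibited, and MEK-inhibited differed from acute libraries by -0.04 (adjusted p = 0.827). On library totals and on the deposited scale that last difference was called, at -0.42 (adjusted p = 0.00912) and -0.38 (adjusted p = 0.0187).

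Of the pump's subunits, Tap1 was called lower in chronic libraries and Tap2 was not. Tap1 had 4131, 5841 and 4719 in acute, 2692, 3400 and 2927 in chronic and 6155, 5598 and 6258 in MEK-inhibited libraries. It fell by 0.69 on the log2 scale (SE 0.12, adjusted p = 1.69e-04) under chronic stimulation, and was 1.00 higher under MEK inhibition (SE 0.12, adjusted p = 6.61e-06). Tap2 had 2356, 3215 and 2348 in acute and 2907, 2556 and 2459 in chronic libraries, which overlapped throughout, with a difference of 0.01 (SE 0.12, adjusted p = 0.950). On library totals, which shift the median of all genes by -0.48, Tap2 was called lower in chronic libraries (-0.48, adjusted p = 0.0109). Under MEK inhibition Tap2 reached 3982, 3889 and 3452, as scaled here above every acute and chronic library. That was a gain of 0.52 over chronic (SE 0.12, adjusted p = 0.00578), which was not called without MEK-inhibited replicate 1 (adjusted p = 0.0649).

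Tapbp, the chaperone that bridges the pump and the empty heavy chain, had 2619, 3118 and 2587 in acute, 1655, 1677 and 1884 in chronic and 3490, 3208 and 3614 in MEK-inhibited libraries. As scaled here the 3 groups did not overlap, and their order was MEK-inhibited, acute, chronic. On the deposited scale the MEK-inhibited values (3549, 3142 and 3131) overlapped the acute ones (3166, 3634 and 3234). The fall was -0.67 (SE 0.11, adjusted p = 7.57e-05) and the gain 0.98 (SE 0.11, adjusted p = 2.21e-06). Of its 8 transcript rows, 6 were lower and 2 higher in chronic than in acute libraries. The 2 exceptions, from bases 33915899 and 33916186, start upstream of the main row and differed by 0.58 and 0.79; they were picked out after their values were seen, and Tapbp shares its span with Gm19412 on the other strand.

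Of the immunoproteasome subunits, Psmb9 was called lower in chronic libraries and Psmb8 was not. Psmb9 had 1726, 2049 and 1512 in acute, 947, 1138 and 1332 in chronic and 2198, 1764 and 2303 in MEK-inhibited libraries, a fall of -0.63 (SE 0.15, adjusted p = 0.00289) and a gain of 0.88 (SE 0.15, adjusted p = 3.24e-04). Psmb8 had 1440, 1490 and 1430 in acute and 1435, 1032 and 1452 in chronic libraries. A single low chronic library, replicate 2, made up most of that difference of -0.17 (SE 0.13, adjusted p = 0.349), which without it was -0.01. On library totals, which shift the median of all genes by -0.48, Psmb8 was called lower in chronic libraries (-0.66, adjusted p = 0.00102). It was also called lower on the deposited scale (-0.64, adjusted p = 0.00122). Under MEK inhibition Psmb8 stood at 1918, 2044 and 2211, above all 6 other libraries, with a gain of 0.67 over chronic (SE 0.13, adjusted p = 0.00138).

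Erap1, which trims peptides to the length that heavy chains hold, had 6380, 6492 and 6663 in acute, 3541, 3648 and 3278 in chronic and 5147, 4323 and 4984 in MEK-inhibited libraries. The groups were fully apart, with the MEK-inhibited one between the others. The fall was -0.90 (SE 0.09, adjusted p = 4.27e-07) and the gain 0.46 (SE 0.09, adjusted p = 0.00135), the smallest gain of the 10.

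Nlrc5, the transactivator of class I genes, changed most between acute and chronic stimulation. Its signal was 27646, 30415 and 26565 in acute, 13906, 13066 and 10824 in chronic and 23499, 20811 and 18565 in MEK-inhibited libraries. As for Erap1, the MEK-inhibited libraries lay between the other groups without overlap. The fall was -1.17 (SE 0.11, adjusted p = 8.08e-08) and the gain 0.74 (SE 0.11, adjusted p = 5.17e-05). Its 9 transcript rows were lower in chronic libraries in 9 cases, by -0.92 to -1.67.

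Set against acute libraries, MEK-inhibited chronic cells did not match in a single way. Tap2 (0.53, adjusted p = 0.00339), Psmb8 (0.50, adjusted p = 0.00941) and Tapbp (0.31, adjusted p = 0.0381) were higher than in acute libraries. Nlrc5 (-0.43, adjusted p = 0.00482) and Erap1 (-0.44, adjusted p = 0.00155) were lower. H2-K1 (0.15, adjusted p = 0.357), H2-D1 (0.25, adjusted p = 0.127), B2m, Tap1 (0.31, adjusted p = 0.0692) and Psmb9 (0.25, adjusted p = 0.257) did not pass the test, which does not show that they were equal. That makes 5 called of 10, beside 25.8% of all genes, 14.4% higher and 11.5% lower. The 5 called genes were also those whose groups did not overlap, 3 above and 2 below, which 22.4% and 19.6% of all genes showed. The 3 higher calls depended on the scaling: on library totals, which shift the median of all genes by -0.38, 0 were called higher and 3 lower, B2m being the third beside Nlrc5 and Erap1. On those totals 955 of all 15942 genes were called higher and 4965 lower, so 3 of 10 lower is near the share of all genes. The Tapbp call was also lost in 4 of 9 fits that left out 1 library, and the Psmb8 call in 3 of 9.

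**Figure D2:**
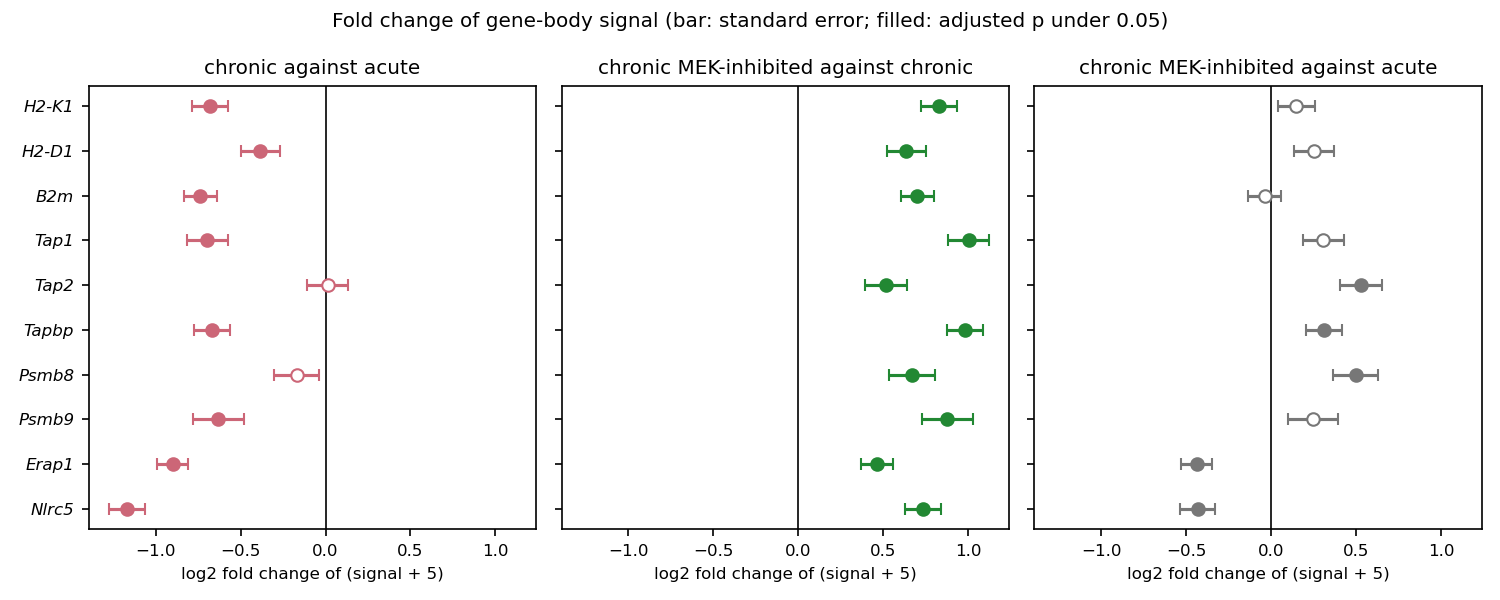
Change of gene-body signal on the log2 scale (horizontal axis) for the 10 genes in the 3 comparisons; bars are standard errors, and filled points passed an adjusted p of 0.05. Points lie left of 0 for 9 genes in the first panel, right of 0 for 10 in the second, and on both sides in the third, where Erap1 and Nlrc5 are the called genes below 0.

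Per kilobase of row span, a scale that takes signal as even along a row, the class I molecule stood highest. In H2-D1 the signal was not even. A row of 869 bases inside the 4770 bases of the row used had a mean of 7669 in acute libraries, against 8432 for the row used. In acute libraries H2-D1 had a scaled signal per kb of 1768 ± 339 (SD, n = 3), H2-K1 1451 ± 251 and B2m 1382 ± 60.5. H2-K1 overlapped both others, while the highest B2m library, at 1450 per kb, lay just below the lowest H2-D1 library, at 1479. Tap1 followed with 506 ± 89.9 and Psmb8 with 397 ± 8.76, then Psmb9, Nlrc5, Tapbp and Tap2 between 305 and 206, and Erap1 last with 121 ± 2.65. In chronic libraries the leading 3 kept their order, with 1342, 897 and 833 per kb. Nlrc5 had rank 7 of the 10 in acute, with 304 per kb, and rank 9 in chronic libraries, with 136.

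Over the 9 libraries the log2 signals of the 10 genes gave 45 pairwise Pearson correlations from -0.00 (Erap1 with Tap2) to 0.97 (Tapbp with H2-K1), with a median of 0.73; these share the libraries and their 3 groups. Outside the set, the genes most like H2-K1 over the 9 libraries were Tpm3, a tropomyosin (r = 0.996), Traf4 and H2-Q4 (both 0.976). Among those most like Tap1 were Mef2a (0.977) and Cyb5a (0.971), and those most like Nlrc5 were Ccm2 (0.992), Rgs3 (0.991) and Dock8 (0.991). H2-Q4 is itself a class I gene, and the other 7 named are not.

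Ratios of 2 genes within a library are free of the scaling, and 7 were computed, chosen after the values had been seen. Tap1 over Tap2 was 1.75, 1.82 and 2.01 in acute, 0.926, 1.33 and 1.19 in chronic and 1.55, 1.44 and 1.81 in MEK-inhibited libraries. The chronic ratios lay below all others. H2-K1 over H2-D1 was 0.711 to 0.777 in acute, 0.570 to 0.622 in chronic and 0.655 to 0.704 in MEK-inhibited libraries, 3 ranges without overlap. Psmb9 over Psmb8 did not separate the groups, with a two-sided exact permutation p of 0.2 between chronic and acute.

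Of 3 ratios of an inducible to the constitutive subunit that it replaces, 1 separated chronic from acute libraries and 3 separated MEK-inhibited from chronic ones. Psmb9 over Psmb6 was 6.13, 5.31 and 3.39 in acute, 2.28, 1.97 and 2.49 in chronic and 4.46, 3.81 and 3.72 in MEK-inhibited libraries, with the chronic values lowest. Psmb8 over Psmb5 overlapped between acute and chronic libraries and was 3.57, 3.42 and 5.31 under MEK inhibition, above the chronic values of 2.91, 1.76 and 1.72. Psmb10 over Psmb7 overlapped between acute and chronic libraries (exact permutation p = 0.6) and was higher in each MEK-inhibited library than in any chronic one. Where the groups were apart the two-sided exact permutation p was 0.1. No smaller value is possible for 2 groups of 3, and adjusted over 21 tests it was 0.21, so no ratio passed the threshold. The ratio of the upstream to the downstream rows of Nlrc5 overlapped between the groups (exact permutation p = 0.5 for chronic against acute).

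**Figure D3:**
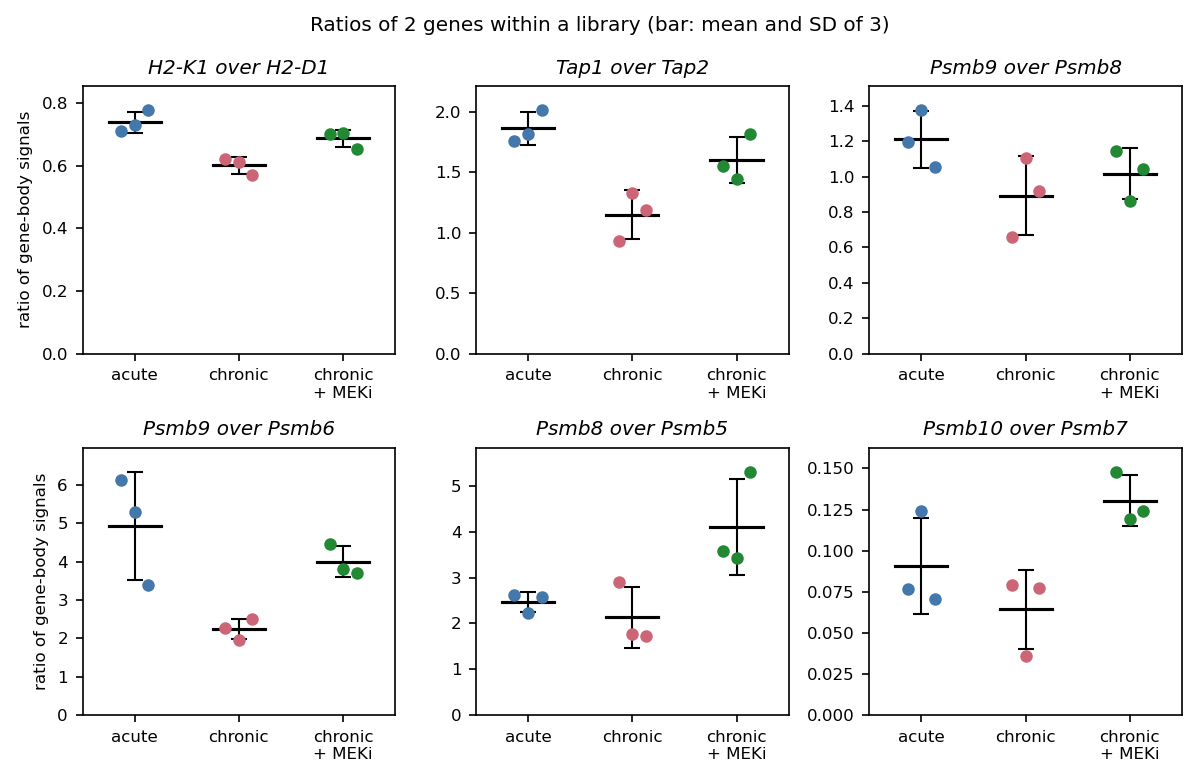
Ratio of the gene-body signals of 2 genes within a library (vertical axis, from 0, no unit) in the 3 groups; points are libraries, bars the mean and SD of 3. Tap1 over Tap2 and Psmb9 over Psmb6 are lowest in the 3 chronic libraries, and Psmb8 over Psmb5 is highest in the 3 MEK-inhibited ones.

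The pause region, the stretch near the start where polymerase can halt, was strong enough to test in 7 of the 10 genes. Between chronic and acute stimulation 4 were lower and 0 higher, where 10.7% of the 7678 genes tested were called, 5.35% lower and 5.37% higher. For 5 of the 7 the chronic libraries lay below the acute ones, as for 11.7% of genes. B2m had 2041, 2608 and 3262 in acute, 1265, 1498 and 1512 in chronic and 2851, 2573 and 2932 in MEK-inhibited libraries. Its chronic values lay below all others, with a fall of -0.86 (SE 0.17, adjusted p = 9.22e-04) and a gain of 0.97 (SE 0.17, adjusted p = 7.16e-04).

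Nlrc5 had a pause-region signal of 569, 493 and 482 in acute and 210, 166 and 212 in chronic libraries, a fall of -1.37 (SE 0.22, adjusted p = 5.77e-05). Psmb9 and Tap1 also fell. The rows used for them start at bases 34187764 (minus strand) and 34187553 (plus strand) and overlap there, so their pause-region values may hold the same reads. Psmb9 had 168, 192 and 177 in acute against 50.2, 53.7 and 138 in chronic libraries (-1.25, adjusted p = 0.0155). Tap1 had 132, 145 and 141 against 32.4, 42.0 and 135 (-1.20, adjusted p = 0.0443). In both genes chronic replicate 3 stood well above the other 2 chronic libraries, in Tap1 within the acute range. The Tap1 call was lost in 8 of 9 fits that left out 1 library (adjusted p up to 0.216; called only without chronic replicate 3). It was also lost on totals without the ribosomal RNA-like rows, without a filter, with plain moderation and with only the groups compared (adjusted p from 0.0748 to 0.193). Without chronic replicate 1, or without chronic replicate 2, 2 genes in place of 4 were called. H2-K1 (-0.53, adjusted p = 0.108), Erap1 (-0.80, adjusted p = 0.278) and Tapbp (0.19, adjusted p = 0.870) did not pass. On library totals H2-K1 (-1.13, adjusted p = 0.00190) and Erap1 (-1.35, adjusted p = 0.0413) were called lower.

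B2m was the single gene called higher in the pause region under MEK inhibition, where 3% of genes were called, 1.56% higher and 1.43% lower. For 4 of the 7 the MEK-inhibited libraries lay above the chronic ones, as for 9.76% of genes, and 10.5% lay below. Psmb9 (1.17, adjusted p = 0.0574) and Nlrc5 (0.73, adjusted p = 0.0635) had groups that did not overlap but did not pass. Without chronic replicate 3, 3 genes were called higher. Between MEK-inhibited and acute libraries limma called 0 of the 7 (background 5.95%, 3.44% higher and 2.51% lower), with 1 at an unadjusted p under 0.05.

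**Figure D4:**
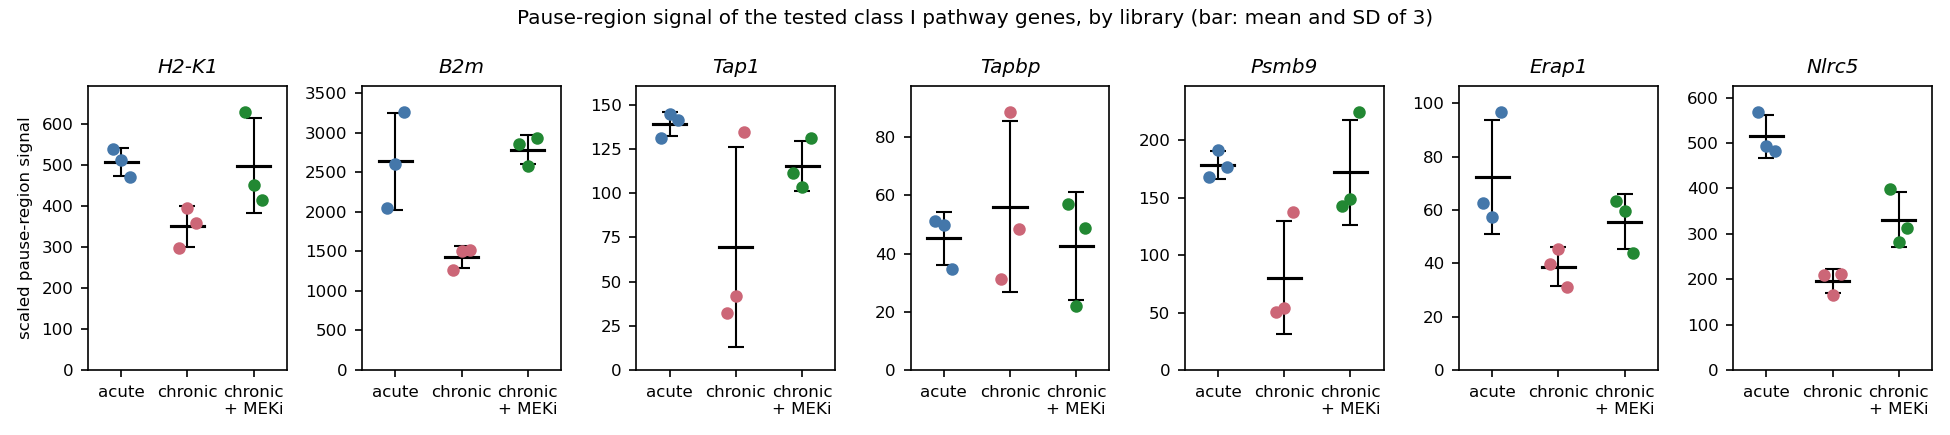
Scaled pause-region signal (vertical axis, from 0, own range per gene) of the 7 tested genes by library, with the mean and SD of 3. In the B2m and Nlrc5 panels the 3 chronic points lie below all acute points, and in the Tap1 and Psmb9 panels 1 chronic point sits apart from the other 2.

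H2-D1, Tap2 and Psmb8 were near 0 in the pause region of the row used, with means of at most 16.3, 15.3 and 35.1. The annotated start of the H2-D1 row lies 364 bases before the RefSeq start. Other rows of these genes, picked out after their values were seen, did hold signal: a Psmb8 row that starts downstream, at base 34198370, had means of 417 in acute, 288 in chronic and 503 in MEK-inhibited libraries. An H2-D1 row from base 35266021 had 763, 471 and 863. Both rows start inside the span of the row used, so this signal may belong to the gene body of that longer row.

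The balance of pause region to gene body was tested for the same 7 genes. In none of the 3 comparisons did limma call a gene, here or among all 7413 genes tested, so the background is 0%. At an unadjusted p under 0.05 there were 0, 1 and 0 of the 7 genes in the 3 comparisons, taken in the order used above, where 10.1%, 5.31% and 7.97% of all genes passed. The 1 was Tapbp (-1.32, adjusted p = 0.726), whose pause-region signal did not exceed 88.7 in any library.

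Other genes of the pathway, in 8 lists with 76 genes, were measured in the gene body, and 73 could be tested. Between chronic and acute stimulation 29 were lower and 7 higher (48 and 1 on library totals), where 15.9% of all genes were lower and 18% higher. Under MEK inhibition 23 were higher and 5 lower than in chronic libraries (25 and 2 on totals), where 9.93% of all genes were higher and 7.65% lower. Against acute libraries 6 were higher and 12 lower (1 and 39 on totals), where 14.4% of all genes were higher and 11.5% lower, a share of lower genes near that of the lists. These percentages do not hold for library totals. There 1096 of all 15942 genes were higher and 6846 lower in chronic than in acute libraries. Under MEK inhibition 1769 were higher and 741 lower than in chronic libraries on totals, and 955 higher and 4965 lower than in acute ones. The lists were written with earlier results of these data known, so their directions are no independent evidence.

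Of the 9 other class I heavy chains tested, 7 fell under chronic stimulation and 0 rose, with a median of -1.33, the lowest of the 8 lists in that comparison. H2-Q7 had a scaled signal of 8573 ± 759 (SD, n = 3) across acute, 2348 ± 163 across chronic and 6267 ± 690 across MEK-inhibited libraries, a fall of -1.86 (adjusted p = 1.12e-10) and a gain of 1.41 (adjusted p = 1.36e-08). H2-Q6 fell by 1.75 on the log2 scale, and H2-Q4 was 1.45 higher under MEK inhibition, where 4 of the 9 were called higher. Reads may be split among H2-Q4, H2-Q6 and H2-Q7, which are close relatives. Against acute libraries 4 of 9 were lower (6 on totals) and 0 higher under MEK inhibition, led by H2-T24 (-1.01, adjusted p = 1.28e-05) and H2-M3 (-0.81, adjusted p = 0.00688), the latter a presenter of formylated peptides.

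The list of inducible proteasome subunits and PA28 held 5 genes. Of these, 2 fell under chronic stimulation (4 on library totals) and 3 rose under MEK inhibition. Psme1 and Psme2, which form the PA28 cap of the proteasome, fell by 0.75 and 0.59 on the log2 scale (adjusted p = 0.00979 and 0.00715) and were 1.21 and 0.98 higher under MEK inhibition (adjusted p = 4.92e-04 and 1.90e-04). Psmb10, the remaining inducible catalytic subunit, differed by -0.27 between chronic and acute (adjusted p = 0.428) and was 0.78 higher under MEK inhibition (adjusted p = 0.0376).

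Of the 14 constitutive core subunits, 2 were higher and 0 lower under chronic stimulation (Psma1 by 0.79, Psmb7 by 0.26) and 0 were higher and 2 lower under MEK inhibition (Psma6 by -0.37, Psmb7 by -0.31). The share called higher in the first comparison lay near the 18% of all genes. Against acute libraries 1 of the 14 was lower under MEK inhibition, Psma3 (-0.30), and 9 were on library totals. Their median change was 0.14 in the first comparison and -0.23 in the second. These directions depended on the scaling: on library totals 0 were higher and 6 lower under chronic stimulation, with Psmb7 at -0.23 and Psma1 at 0.30. On those totals 6846 of all 15942 genes were lower in that comparison, a share near that of the 14. Whether the constitutive core differed from the list of inducible subunits and PA28 was not tested.

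Loading factors and chaperones of the endoplasmic reticulum were mixed. Calr and Canx, the calreticulin and calnexin that fold new heavy chains, were among 3 of 7 that rose under chronic stimulation (0.60 and 0.27), while Ganab (-0.41) and Uggt1 (-0.34) fell. On library totals 0 of the 7 rose and 3 fell, with Calr at 0.11 and Canx at -0.22. That share of falls was near the share of all genes on totals, 6846 of 15942. Tapbpl, the tapasin relative TAPBPR that edits bound peptides, was the 1 gene higher under MEK inhibition, by 0.88 over chronic (adjusted p = 3.54e-05) and by 0.63 over acute (adjusted p = 7.37e-04; 0.25 and not called on totals). Hspa5 fell by 0.63 on the log2 scale. Of 8 other peptidases, 3 fell under chronic stimulation (6 on totals), among them Blmh (-0.39) and Lnpep (-0.36), and 2 rose under MEK inhibition, Blmh (0.50) and Npepps (0.32). Against acute libraries Npepps was higher (0.52, not called on totals) and Tpp2 lower (-0.41); on totals 4 of the 8 peptidases and 4 of the 7 loading factors were lower.

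Among 16 transcription factors known at class I promoters, 9 fell and 1 rose under chronic stimulation (13 and 0 on library totals). Irf1 had 6973, 7344 and 6903 in acute, 3680, 3541 and 5107 in chronic and 7889, 8042 and 8498 in MEK-inhibited libraries, with changes of -0.80 (adjusted p = 2.24e-05) and 1.01 (adjusted p = 3.67e-06). Rfx5, the partner of Nlrc5 on the X box, was the 1 that rose, by 0.87 (adjusted p = 0.00116; 0.39 and not called on totals), and differed by -0.24 under MEK inhibition (adjusted p = 0.445). Irf9 fell by 0.90 on the log2 scale under chronic stimulation.

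Under MEK inhibition 8 of the 16 factors were higher than in chronic libraries and 1 lower. Irf8 was 1.12 higher and Irf2, which can repress interferon targets, fell by 0.41 on the log2 scale (-0.30 and not called on totals). As scaled here, Nfkb1 and Rela, the kappa B factors, did not pass in any of the comparisons. Their changes were 0.13 and 0.20 under chronic stimulation and -0.05 and 0.05 under MEK inhibition. On library totals, which shift the median of all genes by -0.48, 13 of the 16 factors were called lower in chronic than in acute libraries. Against acute libraries 3 were higher, among them Rfx5 (0.63) and Nfyb (0.43), and 3 lower, among them Irf2 (-0.56) and Irf9 (-0.46); on totals 0 were higher and 7 lower.

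In the list of interferon receptors, their kinases and interferon gamma, 5 of 9 fell under chronic stimulation. Ifngr2, the signalling chain of the interferon gamma receptor, had 2534, 3101 and 2464 in acute, 396.8, 385.8 and 394.6 in chronic and 2277, 2302 and 1697 in MEK-inhibited libraries. The chronic libraries were far below both other groups, with a fall of -2.76 (adjusted p = 5.22e-11) and a gain of 2.39 (adjusted p = 1.13e-09). Ifnar2, of the type I interferon receptor, changed by -1.93 and 1.71. The 1 gene of the list that rose was Ifng itself, with 137 ± 28.9 in acute, 1827 ± 337 in chronic and 775 ± 106 in MEK-inhibited libraries (3.69 and -1.22, adjusted p = 9.48e-11 and 1.95e-04). Ifng and Ifngr2 moved in opposite directions in both comparisons, under each scaling tried. Against acute libraries Ifng was 2.46 higher, and Jak1 (-0.57) and Ifnar1 (-0.40) were the 2 lower; on library totals 6 of the 9 were lower.

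The class II list, of genes that present to CD4 T cells, had 5 of 7 genes tested and 1 called in each comparison (3 lower for chronic against acute on totals). That was Ciita, the class II counterpart of Nlrc5, which had 490 ± 60.8 in acute, 164 ± 42.7 in chronic and 301 ± 26.5 in MEK-inhibited libraries. It changed by -1.58 (adjusted p = 5.83e-05) from acute to chronic, by 0.89 from chronic to MEK-inhibited (adjusted p = 0.0160) and by -0.69 between MEK-inhibited and acute (adjusted p = 0.0464).

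**Figure D5:**
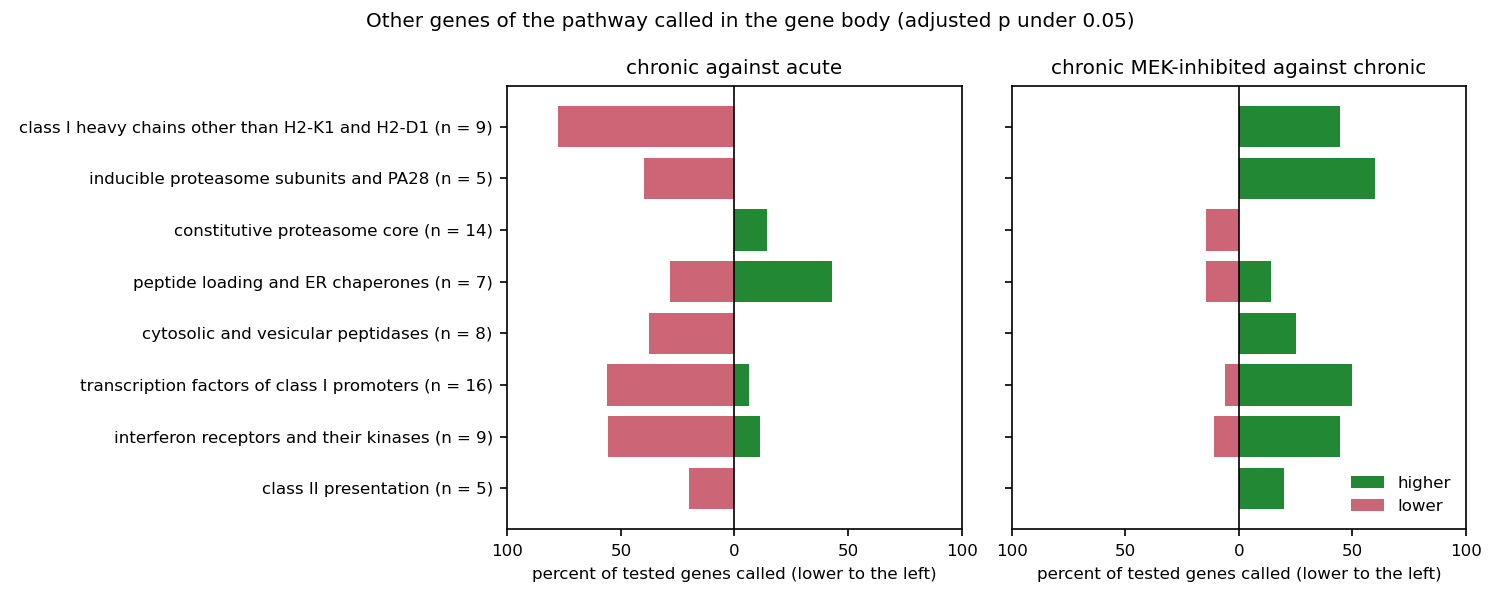
Percent of the tested genes of each list called higher (right of 0) or lower (left of 0) in the gene body, for chronic against acute and for MEK-inhibited against chronic libraries; n is the number tested. The other class I heavy chains have 7 of 9 lower in the first panel, and the constitutive proteasome core has no bar on the left there.

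Class I genes are active in nearly all nucleated cells, so markers of other cell types were summed per library. The B cell list, 3 of 6 passing the filter, summed to 604 to 644 in acute, 224 to 280 in chronic and 187 to 491 in MEK-inhibited libraries. The dendritic list, 5 of 8 passing, summed to 2985 to 3664, 6243 to 6797 and 5434 to 6163, most of it Batf3, which T cells also make. The monocyte list, 2 of 6 passing, gave 166 to 227, 112 to 171 and 91.3 to 218. The natural killer list, 1 of 3 passing, gave 968 to 1766, 1861 to 2231 and 930 to 1082, led by Klrk1, and the CD4 list, 2 of 2 passing, 1040 to 1367, 1054 to 1383 and 1729 to 2016. Most of the CD4 sum was Zbtb7b (789, 1002 and 1769 as group means), while Cd4 itself ran from 383 to 496 in acute, from 144 to 344 in chronic and had a mean of 116 in MEK-inhibited libraries, the highest of them at 141. Cd4 was called lower in chronic than acute (-0.98, adjusted p = 0.0174) and lower again under MEK inhibition (-0.91, adjusted p = 0.0449). No marker was at 0 in every library. The B cell sum, like that of the T cell list, was lower in chronic than in acute libraries, the natural killer and dendritic sums went the other way, and the part of these cells in the results was not tested.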

How the data were processed

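Nascent RNA of mouse CD8 T cells was labelled with 5-ethynyl uridine, captured and sequenced as 9 libraries, per the labels' protocols. The submitters' processing notes name FastQC 0.12.0, Trim Galore 0.6.10, STAR 2.7.0a, SAMtools 1.19.2, deepTools 0.1.9, R 4.1.2 and the build mm10; how regions and strand were counted is not given in the sources used here. The authors deposited signal per transcript in 2 tables of 118482 rows, read here as gene body and pause region. Low values were whole multiples of a per-library step of 0.764 to 1.06 (tolerance 0.01), and more rows lay at 4 steps than at 1 in 9 of 9 libraries, so 1 step is not 1 read. How many reads stand behind a value is not known, and no counting error is given. The count model foreseen for whole counts was therefore not used.

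Rows were matched to GENCODE M21 (117346 with their version, 383 without, 753 not matched), and for each of 37022 genes the row of highest average gene-body signal was used. Scaling took a trimmed mean of log ratios without weights (30% and 5% trimmed). Genes reaching a signal of 50 in 3 or more libraries were tested with limma 3.58.1 (R 4.3.3) on log2(signal + 5), which understates changes of weak genes. A mean per group was fitted, with trend and robust moderation, and p-values were adjusted by Benjamini and Hochberg over all genes tested, at a threshold of 0.05. Pausing was the same fit on the per-library difference between both tables. Tables were joined in Python 3.11.15 (pandas 2.3.3, scipy 1.17.1). The fit was also tested on simulated data, and the outcome is not given here.

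The genes and lists were chosen with earlier results of these data known. All 10 genes are named, with Dusp6, Irf1, Rfx5, Psmb10, Psme1 and Psme2. From each list and comparison up to 2 called rises and 2 called falls are named, the largest among genes with a mean of at least 100 in the higher group and groups that do not overlap. For H2-K1, Tap1 and Nlrc5 the 3 most correlated genes with such a mean are named. The values of 2 genes that these rules name are not reported here. Cd8a and the other single T cell markers, Cd4, Zbtb7b, Nfkb1, Rela and the values of other rows were added after they had been seen.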

Additional observations from a re-analysis of the deposited data

How the results depend on the processing

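The gene-body fall of H2-K1, B2m, Tap1, Tapbp, Psmb9, Nlrc5 and Erap1 from acute to chronic stimulation was called, in the same direction, under each of the 22 or 23 alternatives run, and so was the gain of H2-K1, H2-D1, B2m, Tap1, Tapbp, Psmb8, Psmb9 and Nlrc5 under MEK inhibition. That includes summing H2-K1 and H2-D1. The fall of H2-D1 was not called without a filter (adjusted p = 0.141) or with plain moderation (0.0968), beside the libraries named above. The gain of Erap1 was not called without a filter (adjusted p = 0.102) or with the row of most signal per base (0.0557), nor that of Tap2 without a filter (0.166) or with plain moderation (0.0627). Tap2 between chronic and acute was -0.48 on library totals, -0.46 on the deposited scale, -0.15 on totals without the ribosomal RNA-like rows and -0.041 with the row of most signal per base; leaving out 1 library gave -0.069 to 0.17.

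Against acute libraries, MEK-inhibited H2-K1, H2-D1, Tap1, Tapbp and Psmb9 turned to -0.24, -0.13, -0.077, -0.071 and -0.14 on library totals and to -0.20, -0.091, -0.036, -0.030 and -0.096 on the deposited scale, and H2-K1 to -0.022 on totals without the ribosomal RNA-like rows. B2m was called lower than in acute libraries at -0.42 and -0.38 on the first 2 scalings. In this comparison 3 of the 10 genes were called under each of these 3 scalings (0, 0 and 1 higher), 2 without a filter (0 higher), and 3 with plain moderation (1 lower). Of all genes tested, 37.1%, 34.9% and 29.6% were called under these 3 scalings, 7.66% without a filter and 21.1% with plain moderation. Leaving out 1 library gave 3 to 7 called, with 1 to 5 higher, where 20.3% to 28.8% of all genes were called.

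In the pause region, genes lower in chronic than acute libraries numbered 2 without a filter, 2 with a filter of 200, 1 with plain moderation and 2 to 4 without 1 library. On library totals H2-K1 and Erap1 were called lower as well. Genes higher under MEK inhibition numbered 3 on library totals, 2 on the deposited scale, 2 with a filter of 200, 4 with the row of most signal per base, 0 with plain moderation and 1 to 3 without 1 library. Against acute libraries, 1 was lower on library totals and 1 with a filter of 200. Tapbp turned in the pause region to -0.36 on library totals and -0.67 with the row of most signal per base for chronic against acute. For MEK-inhibited against chronic it turned to 0.67 with that row, and leaving out 1 library gave -0.66 to 0.040.

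Over the 8 lists, genes higher in chronic than acute libraries numbered 1 on library totals, 1 on the deposited scale, 4 on totals without the ribosomal RNA-like rows, 4 without a filter, 4 with plain moderation and 4 to 10 without 1 library; genes lower numbered 48 on totals and 46 on the deposited scale. Under MEK inhibition, genes lower than in chronic libraries numbered 2 on totals, 2 on the deposited scale, 3 without a filter, 9 with a filter of 200, 2 with plain moderation and 3 to 12 without 1 library, and genes higher numbered 15 without a filter. Against acute libraries, genes higher and lower numbered 1 and 39 on totals, 1 and 36 on the deposited scale, 3 and 29 on totals without the ribosomal RNA-like rows, and 3 higher without a filter. Among all 15942 genes, those lower in chronic than acute libraries numbered 6846 on totals and 6713 on the deposited scale. For MEK-inhibited against acute libraries, 4965 were lower on totals, 4542 on the deposited scale and 3151 on totals without the ribosomal RNA-like rows. The cause of these changes in the lists was not tested beyond the scalings' shift of the median of all genes.

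Same-numbered libraries of different groups did not deviate together (r of deviations from the group means from -0.53 to 0.10 over 9 pairs, 0 of them over 0.1). Among libraries of different number r reached 0.51 (acute replicate 2 with MEK-inhibited replicate 1). These values cannot tell whether libraries share an animal, culture or batch, which the labels do not give. With the replicate block, 42 of 44 single-gene results were on the same side of the threshold; Tap1 became higher than in acute libraries under MEK inhibition (adjusted p = 0.0411), and Psmb9 was called in the pause region under MEK inhibition (adjusted p = 0.0349), giving 2 genes higher there in place of 1.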
